A study of Mus musculus with 18 samples.

Results

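The genes described here are 9 transcription factor genes of the hepatocyte lineage, Hnf4a, Foxa1, Foxa2, Foxa3, Onecut1, Cebpa, Prox1, Nr5a2 and Klf6. They were taken by gene symbol from a table of 16873 mouse genes. All 9 reached a value of 10 in 3 or more libraries, the filter that left 14455 genes for testing. RNA was measured in liver hepatocytes in 6 groups of 3 libraries: Mtdh knockout (KO) and wild-type (WT) hepatocytes treated with TNFa, KO and WT hepatocytes treated with TGFb, and KO and WT hepatocytes given CM, the conditioned medium of Kupffer cells (liver macrophages) that had received Py8119-EVPs. Every group came from mice labelled normal and free of tumor, KO and WT mice were matched for age, and each group received 1 of the treatments, so no untreated level is known. The sources used here do not give the age, sex, doses, treatment times, number of mice or deleted part of Mtdh, nor whether Mtdh was removed in all cells or in hepatocytes.

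Mtdh was listed at 581 to 973 in the KO libraries and at 10063 to 13725 in the WT libraries. The summed values of a library, divided by the value estimated for 1 read, came to 19.4 to 35.6 M reads (median 23.4). This is a rough estimate for the listed genes and not the number of reads sequenced. Only 75.1% to 79.8% of values under 20 reads lay within 0.01 reads of a whole number. All 15 hepatocyte markers looked up, among them Alb and Ttr, were detected, and they held 7.72% to 13.1% of the values of a library. The replicates were stated to be biological but were not tied to single mice, so the p-values measure the spread between libraries.

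Hepatocyte identity is held by a network of transcription factors that bind each other's genes and the genes of liver metabolism. Hnf4a, a nuclear receptor, activates genes of lipid, urea and blood protein synthesis. The Foxa proteins are pioneer factors that bind DNA in closed chromatin and open it, and Onecut1, Cebpa, Prox1 and Nr5a2 act with them in liver development and metabolism. TNFa and TGFb are cytokines of the inflamed and the scarring liver, and TGFb is known to move hepatocytes away from their epithelial state.

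Promoter sequences of all 9 genes were found in RefSeq on GRCm38.p6, as 14 windows from 250 bases before to 50 bases after a transcript start. The 5 windows below belong to genes whose RNA differed between groups in the results that follow, and for genes with several starts other than Hnf4a the most upstream one is shown. Each runs 5′ to 3′ on the strand of its gene, and capitals mark the searched motifs. The first Hnf4a window is at chr2:163506607-163506906 (plus strand), the second at chr2:163546905-163547204 (plus), that of Foxa2 at chr2:148046920-148047219 (minus), that of Foxa3 at chr7:19023490-19023789 (minus) and that of Prox1 at chr1:190170778-190171077 (minus).
Hnf4a first start: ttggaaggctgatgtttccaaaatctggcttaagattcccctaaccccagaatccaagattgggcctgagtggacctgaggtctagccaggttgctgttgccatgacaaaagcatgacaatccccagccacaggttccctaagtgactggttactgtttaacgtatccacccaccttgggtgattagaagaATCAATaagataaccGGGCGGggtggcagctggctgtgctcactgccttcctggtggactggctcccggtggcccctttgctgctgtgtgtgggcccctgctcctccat
Hnf4a second start: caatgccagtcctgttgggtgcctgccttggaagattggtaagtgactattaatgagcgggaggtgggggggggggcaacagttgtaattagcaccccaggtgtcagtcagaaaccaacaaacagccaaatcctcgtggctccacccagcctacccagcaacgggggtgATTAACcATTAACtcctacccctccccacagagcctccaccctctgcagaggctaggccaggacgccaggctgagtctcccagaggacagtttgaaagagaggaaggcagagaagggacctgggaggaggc
Foxa2: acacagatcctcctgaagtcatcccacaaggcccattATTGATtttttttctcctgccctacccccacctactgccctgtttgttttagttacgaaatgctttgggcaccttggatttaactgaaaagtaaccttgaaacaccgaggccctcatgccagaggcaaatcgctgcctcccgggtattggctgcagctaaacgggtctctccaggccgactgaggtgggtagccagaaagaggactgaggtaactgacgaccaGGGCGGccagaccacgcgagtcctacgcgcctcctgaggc
Foxa3: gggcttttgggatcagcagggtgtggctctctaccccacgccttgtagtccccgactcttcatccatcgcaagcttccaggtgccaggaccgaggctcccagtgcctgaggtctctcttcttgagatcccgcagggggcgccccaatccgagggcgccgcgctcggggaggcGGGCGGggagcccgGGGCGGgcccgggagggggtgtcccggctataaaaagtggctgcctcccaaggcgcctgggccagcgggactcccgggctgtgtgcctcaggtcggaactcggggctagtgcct
Prox1: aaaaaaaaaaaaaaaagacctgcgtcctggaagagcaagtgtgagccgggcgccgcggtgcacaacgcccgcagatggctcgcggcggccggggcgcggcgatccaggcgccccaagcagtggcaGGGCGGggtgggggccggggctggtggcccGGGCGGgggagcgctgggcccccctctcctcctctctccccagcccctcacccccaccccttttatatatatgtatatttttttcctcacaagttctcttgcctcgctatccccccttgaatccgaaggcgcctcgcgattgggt
The deposited values count each gene as a whole, so RNA from the pair of Hnf4a starts cannot be told apart.

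Both strands of each window were searched for the core letters of motifs of liver and signal factors. The HNF1 core GTTAAT stood at 2 places in the second Hnf4a window (positions -81 and -74 from the start) and in a window each of Foxa2 and Nr5a2, so in 3 of 14 windows, against 7.1% of 32841 RefSeq promoters. The ONECUT core ATTGAT was in the first Hnf4a window and in the Foxa2 window shown (2 of 14 windows, against 7.54% of promoters). The forkhead core TGTTTAC, the letters bound by Foxa proteins, was found for Foxa1 alone (1 of 14 windows, against 3.65%). The nuclear receptor core AGGTCA was found for Nr5a2 alone (1 of 14, against 16.3%), as was the C/EBP core TTGCNNAA (1 of 14, against 10.8%). The GC box GGGCGG was in 10 of 14 windows, from 7 genes, against 35.7% of promoters. The letters TGANTCA (AP-1) and CAGACA (a SMAD core) were in none of the 14 windows, against 7.81% and 21.0% of promoters. A match describes the letters and is no binding site. No match overlapped one of another motif in the 14 windows.

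Klf6, a zinc finger gene, had the highest level per length and Onecut1 the lowest. Per kb of exon length, the median value over 18 libraries was 4181 for Klf6, 1038 for Hnf4a, 404 for Foxa3, 113 for Cebpa, 105 for Foxa2, 91.0 for Prox1, 80.9 for Nr5a2, 56.5 for Foxa1 and 13.1 for Onecut1. Among the Foxa paralogs Foxa3 was therefore the most abundant per length. The levels below are deposited normalized values, which are not divided by length, and differences are on the scale of log2(value + 1) with their standard error.

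**Figure D1:**
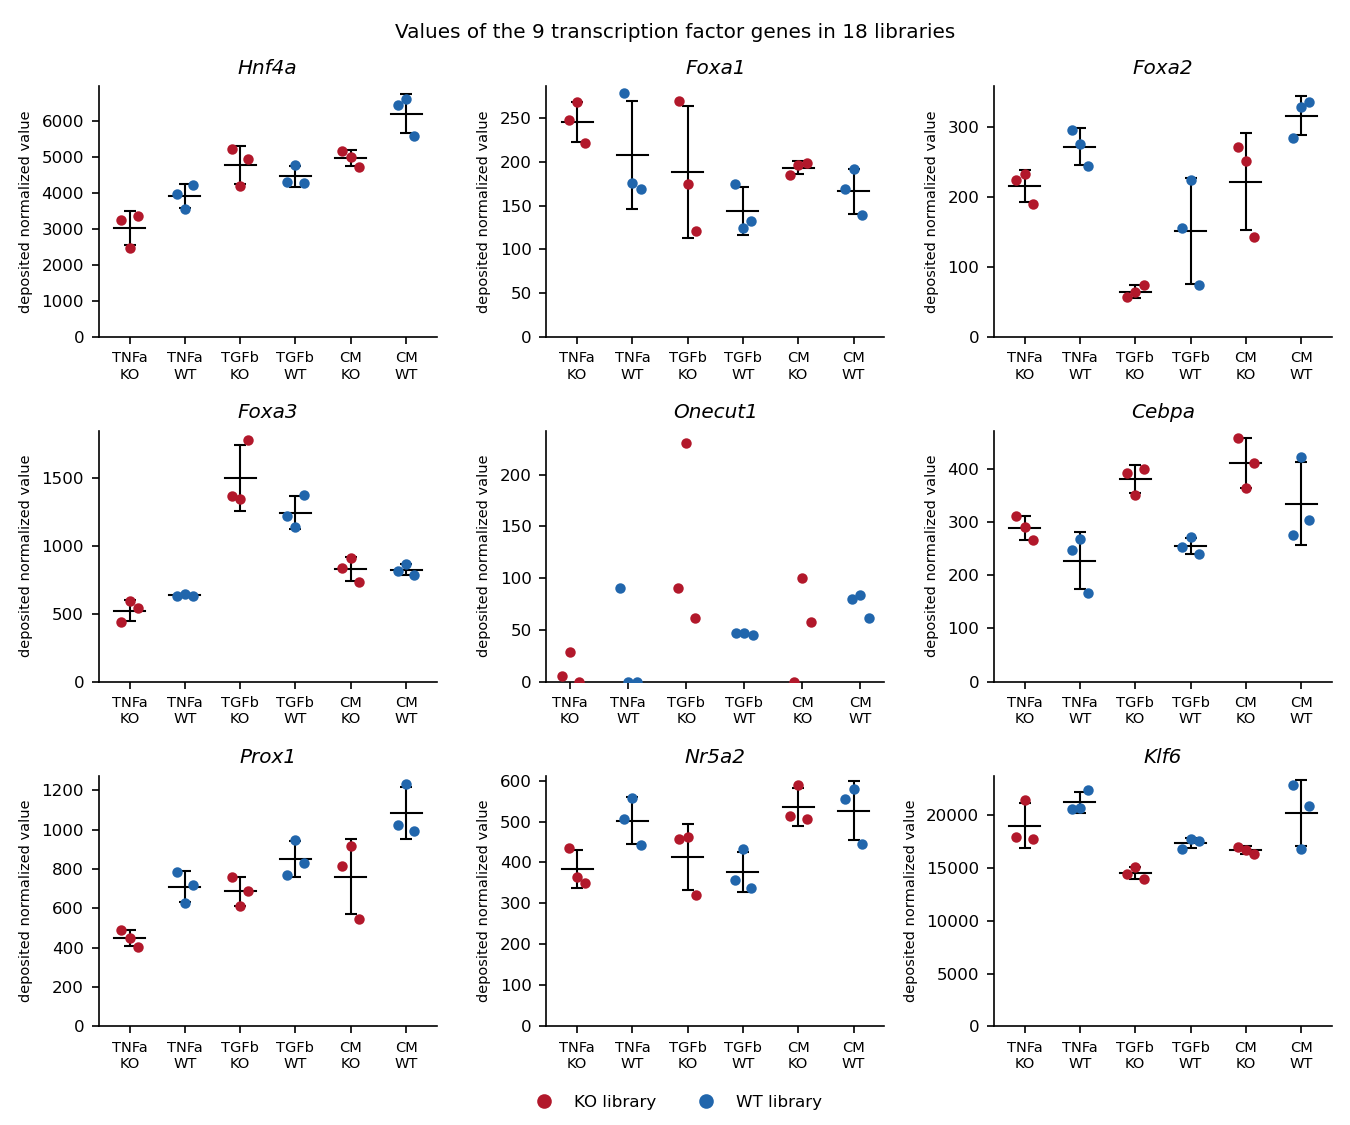
Deposited normalized values of the 9 genes in each library (y axis from 0, own scale for each gene), in red for KO and blue for WT libraries of the 6 groups; bars give the mean and SD of 3 libraries, and Onecut1 has no bars. Foxa3 is highest in both TGFb groups, where Foxa2 is lowest, and Prox1 and Hnf4a are lowest with TNFa in KO libraries.

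KO hepatocytes differed from WT in few of these genes within a treatment. Prox1 fell with TNFa and with CM, Hnf4a fell with TNFa, and Foxa2 fell with TGFb. Averaged over the 3 treatments, Prox1, Foxa2, Klf6 and Hnf4a fell and Cebpa rose in KO hepatocytes. Genes are called where the limma p-value, adjusted over all genes tested, was below 0.05. With TNFa 2 of 9 genes were called, where 7.89% of all genes were. With TGFb it was 1 of 9 (12.2% of all genes) and with CM 1 of 9 (9.39% of all genes), both close to the share of all genes. In the average it was 5 of 9, with 1 higher and 4 lower, where 20.7% of all genes were called (11.2% higher and 9.53% lower).

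**Figure D2:**
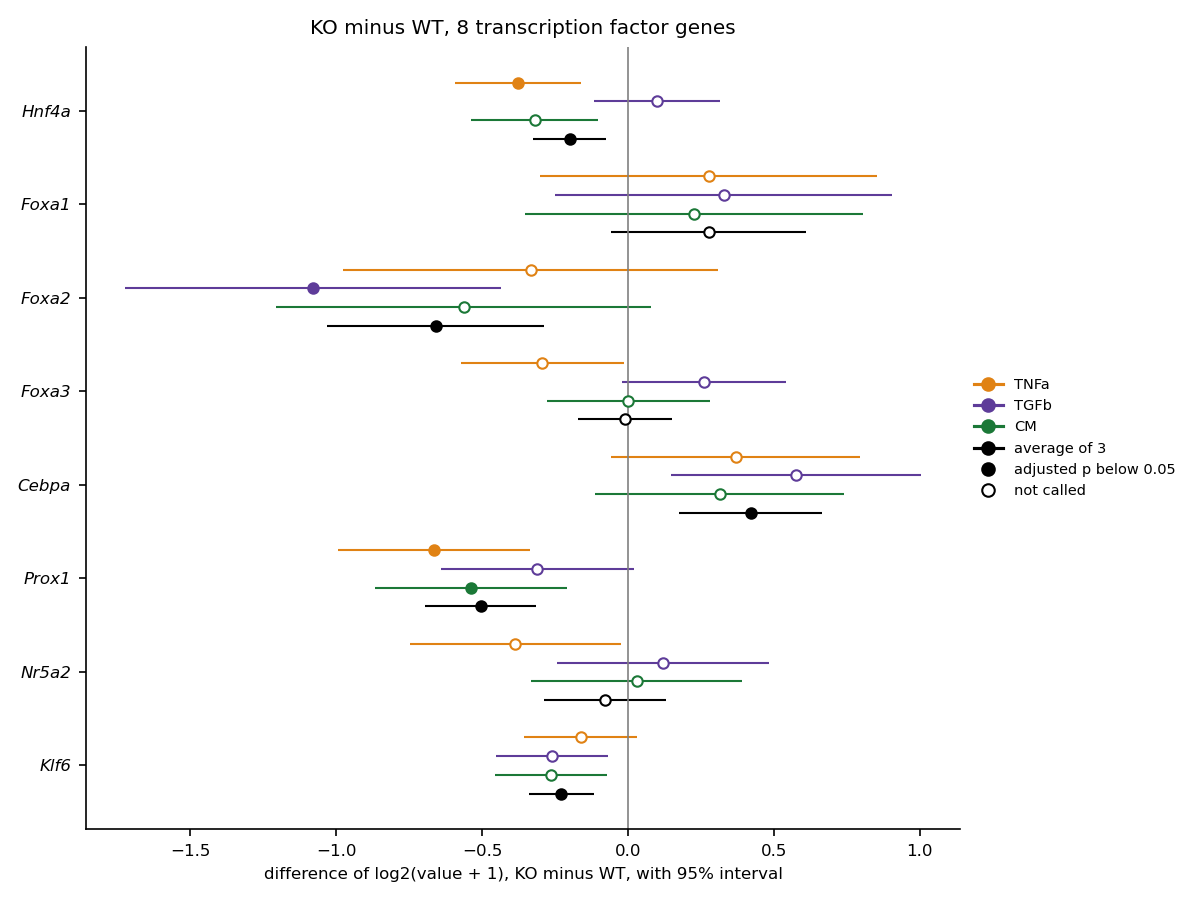
Differences of log2(value + 1), KO minus WT, for 8 of the genes (rows) with each treatment and as their average; points are the limma estimates from 3 libraries a group, lines their 95% intervals, and filled points have an adjusted p below 0.05. Prox1, Foxa2 and Klf6 lie below 0 in all 4 comparisons, and Cebpa and Foxa1 lie above 0 in all 4.

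Macrophage markers were higher in the KO libraries too. The summed value of 16 Kupffer cell and macrophage markers was 0.0444% to 0.05% of a library in TNFa KO and 0.0230% to 0.0248% in TNFa WT, 0.0299% to 0.0367% in TGFb KO and 0.0159% to 0.0184% in TGFb WT, and 0.0314% to 0.0330% in CM KO and 0.0162% to 0.0191% in CM WT. The KO and WT ranges did not overlap with any treatment. How often sums of other genes separated likewise was not counted. Of the 16 markers 9, 12 and 9 rose with TNFa, TGFb and CM, where 4.19%, 7.25% and 5.62% of all genes rose. Among the macrophage markers Timd4, which marks resident Kupffer cells, was listed at 0 in all 3 TGFb WT libraries. Exact 0 values were not confined to low genes, as 32 genes with a median above 40 were at 0 in 1 library or more. Whether such a 0 means that no RNA was present was not tested. Of 12 sinusoidal endothelial markers 4, 2 and 1 rose, and the count of 1 with CM is near the share of all genes. Their summed value was 0.0266% to 0.0283% in TNFa KO and 0.0142% to 0.0170% in TNFa WT, 0.0186% to 0.0235% in TGFb KO and 0.0145% to 0.0166% in TGFb WT, and 0.0182% to 0.0190% in CM KO and 0.01275% to 0.0161% in CM WT, again without overlap. Of 8 stellate cell and fibroblast markers 0, 1 and 1 rose, which is near the shares of all genes. None of 3 T, B and NK cell markers or 2 granulocyte markers was called with any treatment. The part of other cells in the results for the 9 genes was not tested. In bulk RNA fewer cells of a type and less RNA per cell cannot be told apart.

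Hnf4a (ENSMUSG00000017950, chromosome 2, 163348728 to 163414831, plus strand, on mm39) had values of 3246, 2487 and 3366 in TNFa KO and 3971, 3553 and 4218 in TNFa WT libraries. With CM it had 5182, 5007 and 4735 in KO and 6446, 6627 and 5589 in WT libraries. In both pairs every KO library was below every WT library. For this gene and those below, the share of all genes whose libraries separated likewise was not counted. With TGFb the values were 5229.8, 4209.8 and 4955 in KO and 4321, 4797 and 4283 in WT libraries, and these overlapped. The difference was -0.38 ± 0.11 with TNFa (limma adjusted p = 0.0234), a KO mean at 77.5% of WT. It was -0.32 ± 0.11 with CM, just short of a call (limma adjusted p = 0.0545), and 0.10 ± 0.11 with TGFb (limma adjusted p = 0.642), where it was -0.01 when libraries were scaled to equal totals. The TNFa call was lost without TNFa KO 2 (-0.24), TNFa WT 1 (-0.36) or TNFa WT 3 (-0.32), and the CM difference was called without CM WT 3 (-0.39). With only the TNFa groups in the fit the adjusted p was 0.115. The average over treatments was -0.20 ± 0.06 (limma adjusted p = 0.0183), and -0.15 with an adjusted p of 0.0529 without TNFa KO 2.

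Whether the KO effect differed between treatments was tested for each gene with an F-test, and none of the 9 was called (0 of 9, where 1.7% of all genes were). At an unadjusted p below 0.05 there were 2, Hnf4a and Foxa3, where 15.3% of all genes were. For Hnf4a the KO effect with TNFa minus that with TGFb was -0.48 ± 0.15, and the F-test gave a limma adjusted p of 0.132. For Foxa3 the same difference was -0.55 ± 0.19 and the limma adjusted p 0.249. The KO effects of Hnf4a with TNFa and with TGFb are therefore not shown to differ.

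Nr5a2 (LRH-1), the other nuclear receptor of the group, regulates bile acid and cholesterol genes. Its values were 436, 366 and 351 in TNFa KO and 505, 557 and 444 in TNFa WT libraries, 457, 461 and 321 in TGFb KO and 358, 433 and 339 in TGFb WT libraries, and 513, 588 and 506 in CM KO and 555, 580.4 and 445 in CM WT libraries. The TNFa libraries did not overlap, but the difference of -0.39 ± 0.18 was not called (limma adjusted p = 0.206). Averaged over treatments it was -0.08 with a 95% interval of -0.29 to 0.13.

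Prox1 (ENSMUSG00000010175, chromosome 1, 189850232 to 189902912, minus strand, on mm39), a homeobox gene needed for the early growth of the liver, had values of 487, 449.5 and 405 in TNFa KO and 785, 628 and 718 in TNFa WT libraries. With TGFb it had 758, 609.8 and 688 in KO and 769.7, 948 and 831 in WT libraries. With CM it had 817, 914 and 546 in KO and 1024, 1233 and 990.3 in WT libraries. With each treatment all 3 KO libraries were below all 3 WT libraries. With TNFa the mean in KO came to 62.9% of that in WT (-0.66 ± 0.16, limma adjusted p = 0.00762), a call kept when any 1 library was left out. It came to 70.1% with CM (-0.54 ± 0.16, limma adjusted p = 0.0303) and 80.7% with TGFb, where the difference of -0.31 ± 0.16 was not called (limma adjusted p = 0.249). The CM call was lost without CM KO 3, the lowest library (-0.32), CM WT 1 (-0.57) or CM WT 2 (-0.44), and with only the CM groups in the fit the adjusted p was 0.138. Averaged over treatments Prox1 had the smallest adjusted p of the 9 genes (-0.50 ± 0.09, limma adjusted p = 1.3e-04).

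Foxa2 (ENSMUSG00000037025, chromosome 2, 147884797 to 147888890, minus strand, on mm39), the forkhead gene also known for bile acid and insulin responses, had 56.6, 63.5 and 74.2 in TGFb KO and 156, 224 and 73.5 in TGFb WT libraries. With TNFa the values were 225, 233 and 190.2 in KO and 296, 276 and 245 in WT libraries, and with CM they were 272, 251 and 142 in KO and 285, 329 and 337 in WT libraries. KO and WT libraries were apart with TNFa and CM, while with TGFb the lowest WT library fell among the KO libraries. With TGFb the mean in KO came to 42.8% of that in WT (-1.08 ± 0.31, limma adjusted p = 0.0205). Without TGFb WT 3 the difference was -1.52, and without TGFb KO 1 (-0.99), TGFb WT 1 (-0.99) or TGFb WT 2 (-0.73) it was not called, nor with only the TGFb groups in the fit (adjusted p = 0.181). With TNFa it was -0.33 ± 0.31 and with CM -0.56 ± 0.31, neither called (limma adjusted p = 0.615 and 0.322). The average of -0.66 ± 0.18 was called (limma adjusted p = 0.00826) and stayed so in all 18 fits that left out 1 library.

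Foxa1 and Foxa3 were called in no comparison of KO with WT. Foxa1 was 248, 268 and 222 in TNFa KO and 278, 176 and 169 in TNFa WT, 269, 175 and 121 in TGFb KO and 175, 124 and 132 in TGFb WT, and 184, 197 and 198 in CM KO and 168, 191 and 139 in CM WT libraries. The libraries overlapped with each treatment, and the averaged difference was 0.28 with a 95% interval of -0.06 to 0.61 (limma adjusted p = 0.26). Foxa3 (ENSMUSG00000040891, chromosome 7, 18747209 to 18757464, minus strand, on mm39) was 434, 589 and 542 in TNFa KO and 630.0, 641 and 632 in TNFa WT, 1367, 1343 and 1777 in TGFb KO and 1216, 1136 and 1372 in TGFb WT, and 833, 909 and 734 in CM KO and 815, 866 and 786 in CM WT libraries. The TNFa libraries did not overlap, but the difference of -0.29 ± 0.14 was not called (limma adjusted p = 0.213). The averaged difference of Foxa3 was -0.01 with a 95% interval of -0.17 to 0.15.

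Cebpa is a leucine zipper gene that drives metabolic genes and holds back division. Its KO mean was above the WT mean with each treatment, but the difference was called in the average alone. Its values were 393, 350.2 and 398 in TGFb KO and 253, 271 and 240.5 in TGFb WT libraries, which did not overlap. With TNFa they were 310.3, 289.5 and 266 in KO and 248, 267 and 166 in WT libraries, and with CM 457, 364 and 410.4 in KO and 276, 422 and 304 in WT libraries, and both pairs overlapped. The difference was 0.58 ± 0.21 with TGFb (limma adjusted p = 0.0728), 0.37 ± 0.21 with TNFa (limma adjusted p = 0.33) and 0.31 ± 0.21 with CM (limma adjusted p = 0.419). The average was 0.42 ± 0.12 (limma adjusted p = 0.0112) and was called in all 18 fits without 1 library.

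Klf6, known as an early response gene of injured liver, was 14482, 15144 and 13978 in TGFb KO and 16851, 17755 and 17599 in TGFb WT libraries, which did not overlap. With TNFa it was 17913, 21494 and 17732 in KO and 20655, 20662 and 22408 in WT libraries, and with CM 17051, 16749.8 and 16366 in KO and 22924, 16858 and 20918 in WT libraries. The difference of -0.26 ± 0.09 with TGFb was not called (limma adjusted p = 0.073), nor were those of -0.16 ± 0.09 with TNFa and -0.26 ± 0.09 with CM (limma adjusted p = 0.35 and 0.08). Without CM WT 2 the CM difference was -0.39 and called. With equal totals Klf6 was called with TGFb (-0.37) and with CM (-0.34). The average was -0.23 ± 0.05 (limma adjusted p = 0.00233), called in all 18 fits without 1 library.

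Onecut1 (HNF6), a cut homeobox gene, had values under 1 in 4 of 18 libraries and is described by library. Its values were 4.89, 28.3 and 2.32e-07 in TNFa KO and 90.3, 5.73e-08 and 1.5e-07 in TNFa WT, 90.6, 231 and 61.0 in TGFb KO and 46.5, 46.5 and 44.6 in TGFb WT, and 1.72e-06, 100.5 and 57.5 in CM KO and 80.2, 83.8 and 61.7 in CM WT libraries. Those 4 values were above 0, as for 843 genes (5.0%) with a value between 0 and 0.001. Values far below that of 1 read are no read count, and no fold is given. None of the KO comparisons called Onecut1.

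With TGFb Foxa3 was highest and Foxa2 lowest of the 3 treatments, in KO and in WT hepatocytes. Hnf4a and Prox1 were higher with CM than with TNFa in both genotypes. Of 9 genes, 6, with Onecut1 among them, were called for TNFa against TGFb in KO (22.4% of all genes) and 3 in WT (13.4% of all genes). For CM against TNFa it was 3 in KO (12.7%) and 2 in WT (12.3%), and for CM against TGFb 2 in KO (10.6%) and 3 in WT (11.8%). The treatment comparisons within a genotype share their libraries.

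**Figure D3:**
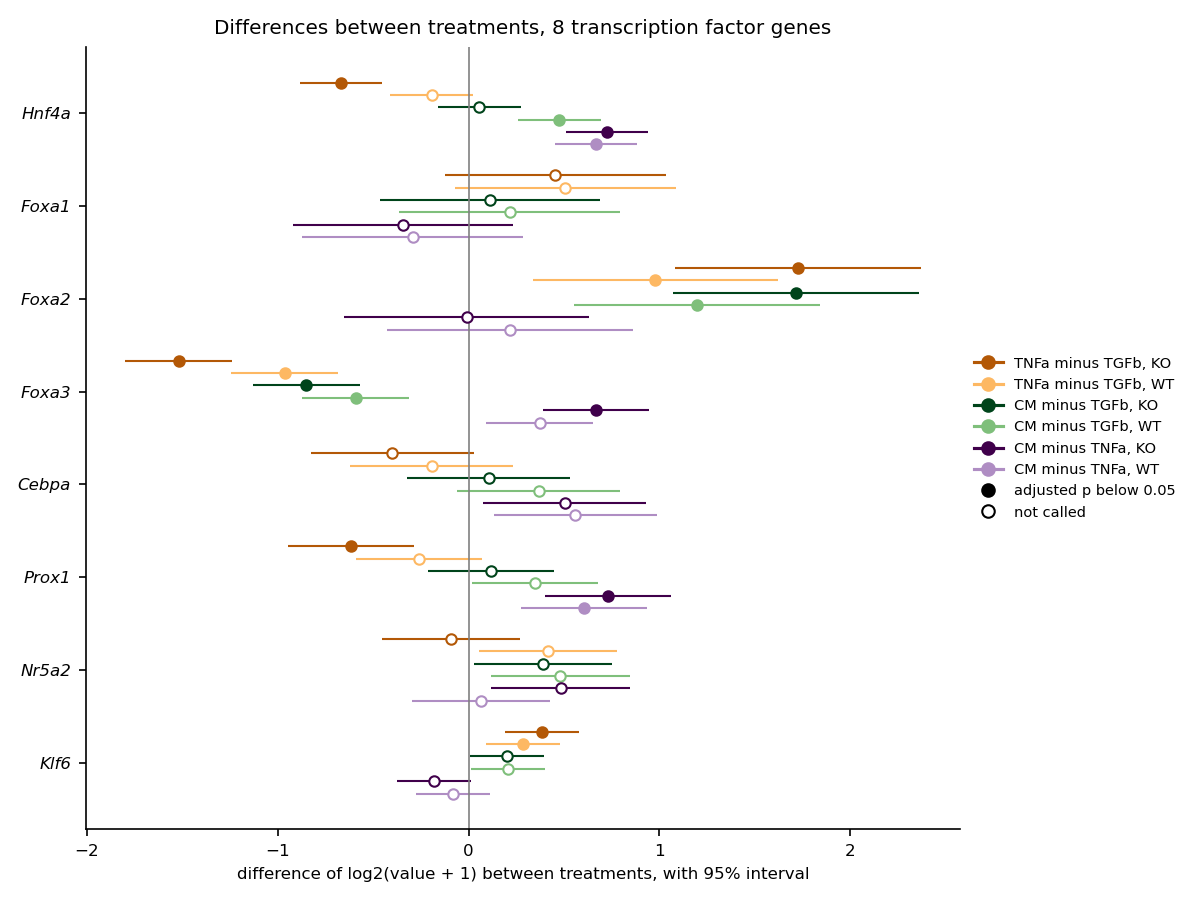
Differences of log2(value + 1) between treatments for 8 of the genes (rows), in dark colors for KO and light colors for WT hepatocytes; points are limma estimates from 3 libraries a group, lines their 95% intervals, and filled points have an adjusted p below 0.05. Foxa2 is above 0 and Foxa3 below 0 in all 4 comparisons against TGFb.

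Foxa3 averaged 522 ± 79.2 with TNFa and 1496 ± 244 with TGFb in KO hepatocytes (SD, n = 3 each), a difference of -1.52 ± 0.14 (limma adjusted p = 5.8e-10). In WT hepatocytes it averaged 635 ± 6.03 with TNFa and 1241 ± 119.8 with TGFb, a difference of -0.96 ± 0.14 (limma adjusted p = 5.0e-06). With CM it lay between them, at 826 ± 87.7 in KO and 822 ± 40.5 in WT. CM against TGFb gave -0.85 ± 0.14 in KO (limma adjusted p = 6.1e-05) and -0.59 ± 0.14 in WT (limma adjusted p = 0.00341). CM against TNFa gave 0.67 ± 0.14 in KO (limma adjusted p = 7.6e-04) and an uncalled 0.37 ± 0.14 in WT (limma adjusted p = 0.0746). The order TGFb, CM, TNFa was the same in both genotypes, and every called Foxa3 difference was kept when any 1 library was left out.

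Foxa2 was lowest with TGFb. In KO hepatocytes it averaged 216 ± 22.7 with TNFa, 222 ± 69.7 with CM and 64.8 ± 8.84 with TGFb. The difference was 1.72 ± 0.31 for TNFa against TGFb (limma adjusted p = 9.3e-05) and 1.71 ± 0.31 for CM against TGFb (limma adjusted p = 3.3e-04), and both were called in all 6 fits without 1 library. In WT hepatocytes it averaged 272 ± 26.1 with TNFa, 317 ± 27.9 with CM and 151 ± 75.4 with TGFb, where the 3 libraries were far apart. The WT difference was 0.98 ± 0.31 for TNFa against TGFb (limma adjusted p = 0.0342), which was lost without TNFa WT 1 (0.92), TNFa WT 2 (0.97), TNFa WT 3 (1.05), TGFb WT 1 (1.07) or TGFb WT 3 (0.53) and was 1.33 without TGFb WT 2. For CM against TGFb it was 1.20 ± 0.31 (limma adjusted p = 0.0101), lost without TGFb WT 3 (0.75). With only the compared groups in the fit neither WT difference was called (adjusted p = 0.149 and 0.0626).

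The ratio of the Foxa3 value to the Foxa2 value within a library is given as a description without a test. It was 21.2, 24.0 and 24.1 in TGFb KO and 5.07, 7.78 and 18.7 in TGFb WT libraries, from lowest to highest. With CM it was 3.06, 3.62 and 5.16 in KO and 2.34, 2.64 and 2.86 in WT libraries, and with TNFa 1.93, 2.53 and 2.85 in KO and 2.13, 2.33 and 2.59 in WT libraries. All 6 TGFb libraries but 1 were above 5.16, the highest ratio of the other groups, and that 1 stood at 5.07. The ratio does not depend on the scaling of the libraries.

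**Figure D4:**
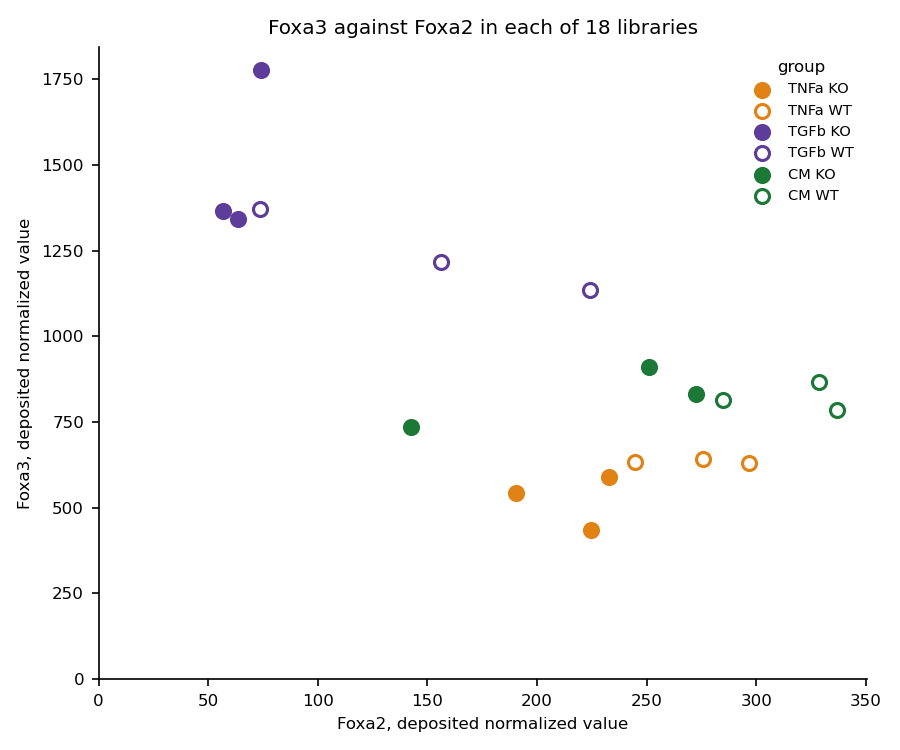
Foxa3 (y axis) against Foxa2 (x axis), deposited normalized values from 0, with 1 point per library; filled points are KO, open points WT, and the color gives the treatment. The 3 TGFb KO libraries are at the upper left, with Foxa2 between 56.6 and 74.2 and Foxa3 at 1343 or more.

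Hnf4a was highest with CM in WT and lowest with TNFa in KO hepatocytes. It averaged 4974 ± 225 with CM and 3033 ± 477 with TNFa in KO, a difference of 0.73 ± 0.11 (limma adjusted p = 8.2e-06). In WT it averaged 6220.5 ± 555 with CM and 3914 ± 336 with TNFa, a difference of 0.67 ± 0.11 (limma adjusted p = 4.0e-05). TNFa against TGFb gave -0.67 ± 0.11 in KO (limma adjusted p = 1.3e-05) and an uncalled -0.19 ± 0.11 in WT (limma adjusted p = 0.282). CM against TGFb gave an uncalled 0.06 ± 0.11 in KO (limma adjusted p = 0.808) and 0.48 ± 0.11 in WT (limma adjusted p = 0.00239). The called Hnf4a differences between treatments were kept when any 1 library was left out.

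Prox1 had a like order, with the highest mean with CM and the lowest with TNFa in both genotypes. CM against TNFa gave 0.73 ± 0.16 in KO (limma adjusted p = 0.00169) and 0.61 ± 0.16 in WT (limma adjusted p = 0.0109). The WT call was lost without TNFa WT 2 (0.52) or CM WT 2 (0.51). TNFa against TGFb gave -0.61 ± 0.16 in KO (limma adjusted p = 0.00529), which was -0.36 and not called with equal totals, and an uncalled -0.26 ± 0.16 in WT (limma adjusted p = 0.36).

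Klf6 was higher with TNFa than with TGFb. The difference was 0.39 ± 0.09 in KO (limma adjusted p = 0.00278) and 0.29 ± 0.09 in WT (limma adjusted p = 0.0395). The WT call was lost when any of its 6 libraries was left out, with values between 0.25 and 0.31. Klf6 for CM against TGFb in WT was 0.21 ± 0.09 and not called (limma adjusted p = 0.171), and 0.33 and called without CM WT 2. The Nr5a2 difference for CM against TGFb in WT was 0.48 ± 0.18 and not called (limma adjusted p = 0.0773), and 0.60 and called without CM WT 3. Cebpa and Foxa1 were called in none of the 6 treatment comparisons. Onecut1 was called for TNFa against TGFb in KO (limma adjusted p = 0.0231), where all 3 TNFa libraries were below the TGFb libraries. That call was lost without TNFa KO 1, TNFa KO 3, TGFb KO 1 or TGFb KO 2 (adjusted p = 0.0513, 0.156, 0.0525 and 0.0919), and without the filter on low values (adjusted p = 0.0549).

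The order of the 6 group means is described by whether the libraries of neighbouring groups overlapped, which is not a test. Some steps without overlap were called, such as Prox1 between TGFb KO and TNFa KO (limma adjusted p = 0.00529). Others were not, such as Foxa2 between TNFa WT and TNFa KO (limma adjusted p = 0.615) and Hnf4a between TGFb WT and TNFa WT (limma adjusted p = 0.282). For Hnf4a, CM WT was above CM KO with no overlap of libraries, CM KO, TGFb KO and TGFb WT overlapped in turn, and TGFb WT, TNFa WT and TNFa KO followed without overlap between neighbours. For Foxa3 the 2 TGFb groups overlapped, as did the 2 CM groups, and the steps from TGFb to CM, from CM to TNFa WT and from TNFa WT to TNFa KO did not. Prox1 had gaps at the top, below CM WT, and at the bottom, above TNFa KO, and Foxa2 had 1 gap, between TNFa WT and TNFa KO. Klf6 had 1 gap, above TGFb KO, and all neighbours overlapped for Foxa1, Cebpa and Nr5a2. The group means spanned 2.28 on the log2 scale for Foxa2, 1.52 for Foxa3, 1.27 for Prox1, 1.04 for Hnf4a, 0.87 for Cebpa, 0.78 for Foxa1, 0.55 for Klf6 and 0.51 for Nr5a2.

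The genes whose 6 group means lay closest to these patterns were sought among the 11001 tested genes whose mean value reached 50, by the root mean square difference of centred log2 means over 6 groups. For Foxa2 they were Nid1 (0.11), a basement membrane gene, Nrg4 (0.12), a secreted growth factor gene, and Ezr (0.15), which links membrane and actin. For Foxa3 they were Fzd7 (0.11), a Wnt receptor gene, Lifr (0.12), a cytokine receptor gene, and Clmn (0.13). For Hnf4a they were Gm49322 (0.05), Errfi1 (0.06), an inhibitor of EGF receptor signals, and Lrch4 (0.08). These distances are below the pooled SD of Hnf4a between libraries of a group (0.147). Gm49322 had low group means of 41.55 to 80.39, and its highest was in TGFb KO, while that of Hnf4a was in CM WT. For Prox1 they were Xpa (0.08), a DNA repair gene, Xylb (0.11) and Tpcn1 (0.11). For Onecut1 the closest, Ncald, was at 0.89, so no gene followed its scattered means. The measure describes these 18 libraries.

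Of 33 other liver-enriched transcription factors tested, 2 rose and 2 fell in KO hepatocytes with TNFa, 6 rose and 2 fell with TGFb, and 1 rose and 2 fell with CM. Of all genes 4.19% rose and 3.7% fell with TNFa, 7.25% and 4.95% with TGFb, and 5.62% and 3.77% with CM, so the counts with TNFa and CM were near the share of all genes. The median difference was -0.07, 0.04 and -0.13, against 0.02, -0.01 and -0.01 for all genes. With equal totals the count was 4 higher and 3 lower with TGFb and 0 higher and 3 lower with CM. Onecut2, the paralog of Onecut1, fell with each treatment. It averaged 3231 ± 284 in KO and 4523 ± 398 in WT with TNFa, 3471 ± 601 in KO and 4606 ± 244 in WT with TGFb, and 3981 ± 217 in KO and 5597 ± 455 in WT with CM. The differences were -0.49, -0.42 and -0.49 in turn (limma adjusted p = 0.0025, 0.00572 and 0.00187). The TGFb call of Onecut2 was lost without TGFb KO 1 (-0.31, adjusted p = 0.0762).

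Further genes of the list were called with TGFb. There, Mlxipl (ChREBP, the carbohydrate response factor) rose by 0.90 ± 0.16 (limma adjusted p = 1.2e-04) and Nr1h4 (FXR, the bile acid receptor) by 0.96 ± 0.23 (limma adjusted p = 0.004). Mlxipl averaged 894 ± 163 in TGFb KO and 475 ± 34.1 in TGFb WT libraries (SD, n = 3 each). Zbtb20, a zinc finger repressor of Afp, fell with TGFb by 0.69 on the log2 scale (limma adjusted p = 4.1e-05). Between treatments Creb3l3, a liver factor of lipid and fasting genes, was lower with TNFa than with TGFb, with differences of -1.21 ± 0.12 in KO (limma adjusted p = 6.4e-09) and -0.97 ± 0.12 in WT (limma adjusted p = 1.0e-06).

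Among 13 other Klf genes tested, 0 rose and 1, 1 and 3 fell in KO with TNFa, TGFb and CM, where 3.7%, 4.95% and 3.77% of all genes fell. The counts of 1 are near those shares. Klf13 fell with all 3 treatments. It averaged 3157 ± 239 in KO and 4623 ± 10.9 in WT with TNFa, 3384 ± 438 in KO and 4771 ± 303 in WT with TGFb, and 3775 ± 211 in KO and 5349 ± 272 in WT with CM. The differences were -0.55, -0.50 and -0.50 (limma adjusted p = 1.4e-04, 2.4e-04 and 3.9e-04), kept in every fit without 1 library. With CM, Klf3 (-0.45) and Klf5 (-1.18) also fell, and the Klf5 call was lost without CM KO 2 (-0.92, adjusted p = 0.0724) and with only the CM groups in the fit (adjusted p = 0.0586).

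The liver genes that these factors are known to drive were called higher in KO hepatocytes more often than lower with each treatment. Of 33 tested targets, 13 rose and 3 fell in KO with TNFa, 23 rose and 0 fell with TGFb, and 18 rose and 0 fell with CM. Of all genes 4.19%, 7.25% and 5.62% rose and 3.7%, 4.95% and 3.77% fell. The targets' median difference was 0.15, 0.52 and 0.46, against 0.02, -0.01 and -0.01 for all genes. With equal totals 13 targets rose and 2 fell with TNFa, 17 rose and 1 fell with TGFb, and 15 rose and 1 fell with CM. Quantile normalization gave 13 and 2, 20 and 0, and 16 and 1 in turn. Most of the 15 hepatocyte markers are also in the list of targets, so their counts are no separate result. Of the 15 markers 6 rose and 1 fell with TNFa, 10 rose with TGFb and 9 rose with CM. The markers outside the list of targets were not counted apart. Cps1, the first enzyme of the urea cycle, averaged 44276 ± 871 in KO and 25942 ± 1365 in WT with TNFa, 92026 ± 1641 in KO and 35387 ± 1568 in WT with TGFb, and 78782 ± 3075 in KO and 38049 ± 3853 in WT with CM. Its differences were 0.77, 1.38 and 1.05, each ± 0.09 (limma adjusted p = 3.0e-07, 8.0e-13 and 6.0e-10). Tdo2, which breaks down tryptophan, rose by 0.99, 1.23 and 0.90, and Pck1, an enzyme of gluconeogenesis, by 1.17 with TNFa and 1.52 with TGFb. The genes that fell with TNFa were Apoa1 (-0.55), Cyp27a1 (-0.39) and Hp (-0.38), for a lipoprotein, a bile acid enzyme and haptoglobin. The Cyp27a1 call was lost without TNFa WT 1 (-0.33), and that of Hp without TNFa KO 1 (-0.38), TNFa KO 2 (-0.28), TNFa WT 2 (-0.39) or TNFa WT 3 (-0.34), and with quantile normalization (-0.33), equal totals (-0.35) or only the TNFa groups in the fit.

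**Figure D5:**
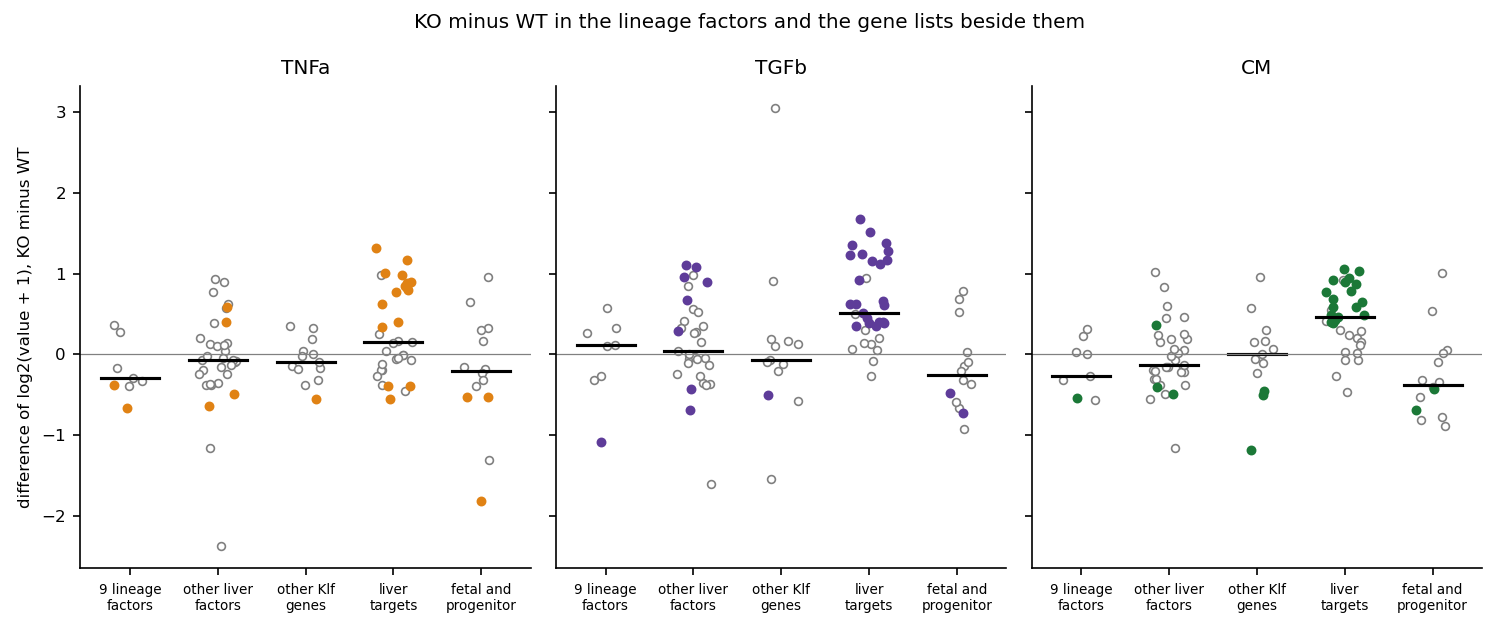
Differences of log2(value + 1), KO minus WT, with each treatment (panels) for the lineage factors and 4 gene lists; 1 point per gene, colored where the adjusted p was below 0.05, with a bar at the list's median. The liver targets lie mostly above 0 in the TGFb and CM panels; Onecut1 is not drawn but counts in the bar of the 9 factors.

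Between treatments the same targets were lower with TNFa. For TNFa against TGFb, 0 rose and 31 fell in KO and 0 rose and 23 fell in WT, of 33. For CM against TNFa, 31 rose and 0 fell in KO and 23 rose and 1 fell in WT. Of all genes 10.1% rose and 12.3% fell in KO and 5.33% rose and 8.06% fell in WT for TNFa against TGFb, and 8.38% rose and 4.32% fell in KO and 6.81% rose and 5.46% fell in WT for CM against TNFa. In these comparisons Hnf4a, Prox1 and Foxa3 were each called lower with TNFa in 3 of 4. Foxa2 and Klf6 went the other way and were called higher with TNFa than with TGFb in both genotypes. Onecut1 was called lower with TNFa than with TGFb in KO, a call lost in 4 of 6 fits without 1 library. In WT it was not called (limma adjusted p = 0.115), and the genotypes are not shown to differ. Foxa1, Cebpa and Nr5a2 were not called. The part of the factors in the differences of the targets was not tested. The summed value of 11 cholangiocyte markers stood apart by treatment too. It was 0.161% to 0.180% of a library in TGFb KO and 0.175% to 0.192% in TGFb WT, against 0.0352% to 0.0730% in the TNFa and CM libraries. Most of that sum was Cldn4, a tight junction gene named here after its values were seen, at 35711 ± 2518 in TGFb KO and 34930 ± 2425 in TGFb WT. The markers did not move as a set. Of 10 tested, 0 rose and 4 fell in KO and 1 rose and 1 fell in WT for TNFa against TGFb. For CM against TGFb 1 rose and 3 fell in KO (5.2% and 5.39% of all genes), and 0 rose and 3 fell in WT (5.76% and 6.09%). The part of these markers in the treatment differences was not tested.

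Of 14 genes of fetal liver and progenitor cells tested, 0 rose in KO hepatocytes and 3, 2 and 2 fell with TNFa, TGFb and CM, where 3.7%, 4.95% and 3.77% of all genes fell. Hmga2, a chromatin protein gene of fetal tissues, fell with each treatment, with differences of -0.53 ± 0.11, -0.73 ± 0.11 and -0.69 ± 0.11 (limma adjusted p = 0.00166, 1.1e-05 and 5.4e-05). Spp1 (-1.81 ± 0.27) and Sox9 (-0.53 ± 0.13) fell with TNFa, and the Sox9 call was lost without TNFa KO 3 (-0.43). Both are also in the list of cholangiocyte markers. Afp, the fetal counterpart of albumin, was not called in any KO comparison, and it was higher with TNFa than with TGFb by 1.93 ± 0.43 in KO (limma adjusted p = 0.00113) and 1.80 ± 0.43 in WT (limma adjusted p = 0.00368). The Afp difference in WT was lost without TNFa WT 2 (1.32, adjusted p = 0.062) and with only the compared groups in the fit (adjusted p = 0.0796).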

How the data were processed

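RNA-seq of mouse hepatocytes was analysed in 18 libraries, 3 in each of 6 groups. Per the labels' protocols, total RNA was depleted of ribosomal RNA with QIAseq FastSelect and made into libraries with PrepX on an Apollo system. Per the submitters' processing notes, the authors used Partek, STAR 2.7.8a, DESeq2 and mm39, with no roles given. The deposited table gives each gene a signal per library, a value that the authors normalized with DESeq2 according to the name of the table. The counting step is not given in the sources used here. Of values under 20 reads, 75.1% to 79.8% lay within 0.01 reads of a whole number of reads, so no reads were recovered and no count model was used.

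Differences were fitted with limma 3.58.1 (R 4.3.3) on log2(value + 1), with 6 group means, a spread trend over level and Benjamini-Hochberg adjustment over 14455 of 16873 genes (value at least 10 in at least 3 libraries). The fit had 12 residual and 17 prior degrees of freedom, and the 95% intervals use both. The log scale understates changes of low genes. Alternatives were other pseudocounts (0.5 and 5), filters, scalings, a replicate block, fits of the compared groups alone and leaving out each library. Plots were drawn with matplotlib 3.10.9.

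The 9 genes and all lists were chosen with earlier results of these data known. Named genes are the 9, Mtdh, up to 3 called genes per list, direction and comparison with the smallest p, and the 3 genes most like each of the 9 whose group means spanned at least 1 on the log2 scale. How reads shared by paralogs were counted is not given in the sources used here. Exon lengths come from GENCODE M21, promoters from RefSeq on GRCm38.p6, and gene positions from the deposited table on mm39.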

Additional observations from a re-analysis of the deposited data

Results flagged for a closer look

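None of the 9 lineage factors was singled out, and groups of 3 libraries are too small to look for libraries that stand apart. For 6 genes named beside them the KO effect differed between the 3 treatments in an F-test across all genes, which called 1.7% of them. These 6 had been named for their values in the same libraries, so their number is no separate result. Mlxipl (limma adjusted p = 0.00625, highest 0.0318 with 1 library left out) had KO minus WT differences of -0.24 with TNFa, 0.90 with TGFb and -0.16 with CM. Cldn4 (limma adjusted p = 0.000224, highest 0.00171) had 0.54, 0.03 and 1.10 in the same order. Ezr (limma adjusted p = 0.0179) had -0.36, -0.95 and -0.37, and lost the call without TGFb KO 3 (0.0565) or TGFb WT 2 (0.0605). Cps1 (limma adjusted p = 0.0213) had 0.77, 1.38 and 1.05, and lost it without TNFa WT 1 (0.0652), TNFa WT 3 (0.0614), TGFb WT 1 (0.0513) or TGFb WT 2 (0.0693), with quantile normalization (0.514) and with equal totals (0.0582). Pck1 (limma adjusted p = 0.0229) had 1.17, 1.52 and 0.79, and lost it without TGFb KO 1 (0.0598), TGFb KO 3 (0.0641), TGFb WT 1 (0.0727) or CM KO 3 (0.0714). Zbtb20 (limma adjusted p = 0.0498) had -0.01, -0.69 and -0.40, and lost it in 14 of 18 fits without 1 library. It also lost the call with a pseudocount of 0.5 (0.0557), without the filter (0.0985) and with the replicate block (0.0656).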

How the results depend on the processing

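The call of Prox1 with TNFa, the averaged calls of Prox1, Klf6, Foxa2 and Cebpa, and the KO treatment calls of Hnf4a, Foxa2, Foxa3 and Klf6 held in every fit run. Of the 9 genes, KO minus WT with CM called 2 with a pseudocount of 5, a mean filter of 50 or quantile normalization, 3 with equal totals and 0 with only the groups compared, against 1. KO minus WT with TNFa called 1 with quantile normalization and 1 with only the groups compared, against 2, and with TGFb 2 with equal totals, against 1. In WT, TNFa minus TGFb called 1 without a filter, against 3, and CM minus TGFb called 5 with equal totals, against 3. Without 1 library the counts were 1 to 2 (TNFa), 0 to 1 (TGFb), 0 to 2 (CM) and 4 to 5 (average) for KO minus WT, 1 to 2, 1 to 3 and 2 to 4 in WT for TNFa minus TGFb, CM minus TNFa and CM minus TGFb, 5 to 6 for TNFa minus TGFb in KO, and unchanged at 3, 2 and 0 for the others. The averaged Foxa3 difference, not called, ranged from -0.054 to 0.032 without 1 library, and Hnf4a with TGFb was -0.0091 with equal totals. The cause was not tested.

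Equal totals shifted the median of all genes by -0.106 (TGFb, KO minus WT), 0.113 (TNFa minus TGFb, WT), 0.25 (TNFa minus TGFb, KO) and -0.154 (CM minus TNFa, KO), to -0.117, 0.109, 0.288 and -0.173. It moved the split of all called genes by over 10 points in 9 of 10 comparisons: to 35.7% higher, against 59.4%, for KO minus WT with TGFb, 41.8% against 59.9% with CM and 40.5% against 54% on average, to 61.0% against 39.8%, 44.7% against 55.5% and 63.8% against 48.6% in WT, and to 77.0% against 45%, 31.5% against 66% and 71.7% against 49.1% in KO for TNFa minus TGFb, CM minus TNFa and CM minus TGFb. Quantile normalization gave 55.5% for CM minus TNFa in KO. Among all genes, fits of the compared groups called 719 with TNFa and 795 with CM, against 1141 and 1358, and 904 for CM minus TNFa in WT, against 1774. The test between treatments called 246 genes, 150 without a filter and 111 to 521 without 1 library. Equal totals called 4875 for TNFa minus TGFb and 2784 for CM minus TNFa in KO, against 3237 and 1835.

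Replicate numbers did not pair the libraries: 0 of 18 correlations of same-numbered libraries within a genotype and 0 of 9 between genotypes were above 0.1. With the replicate block the counts were 2, 1, 1 and 5 for KO minus WT, 2, 2 and 3 in WT, 6, 4 and 2 in KO and 0 between treatments.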
